A study of Macaca mulatta with 20 samples.

Results

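Corpora lutea collected very late in the luteal phase were compared with corpora lutea collected at its middle. The comparison took the 4 samples whose titles name the very-late luteal phase and the 4 whose titles name the mid luteal phase, 8 of the 20 samples in the series. Very-late corpora lutea were removed 18 to 19 days after the midcycle surge of luteinizing hormone (LH), once menses had occurred, and the submitters describe them as the remnants of the gland during its structural breakdown. Mid corpora lutea were removed 7 to 8 days after the surge, when progesterone production peaks. The other groups, early (days 3 to 5), mid-late (days 10 to 12) and late (days 14 to 16), have 4 samples each. All donors were untreated female rhesus macaques with normal menstrual cycles, and each gland was removed at laparotomy and flash frozen. The labels give neither the ages of the animals nor a dissection of cell types, so each sample is a whole gland. They call the samples biological replicates. The p-values for genes set a difference against the spread between samples of the same stage, estimated jointly from all 20 samples of the 5 stages.

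The corpus luteum forms from the granulosa and theca cells of the ruptured follicle and takes up lipoprotein cholesterol to make progesterone under the drive of LH. In primates it also makes oestradiol, inhibin A and relaxin. When no pregnancy follows, progesterone output ends first, and the gland is then dismantled, with death of luteal cells, loss of capillaries, remodelling of matrix and entry of macrophages that clear the debris.

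Messenger RNA was measured on Affymetrix rhesus macaque arrays, and all values below are the deposited log2 signals, on a scale where 1 unit is a doubling. A level can be compared between samples for 1 probe set, not between genes. Probe sets for viral sequences, which should find no target in these tissues, had a median of 3.42 and a 95th percentile of 4.30, and a level under 4.30 is called near background here. A fold against a group whose mean is near background is given as measured and is a lower limit. Pairs of very-late arrays correlated at 0.964 to 0.988 over all probe sets, pairs of mid arrays at 0.983 to 0.991, and very-late with mid arrays at 0.906 to 0.953. On 6 probe sets for mitochondrially encoded transcripts the arrays of the series fell into a low set of 7 arrays (7.02 to 8.93) and a high set of 13 (11.5 to 12.4). The low set held 1 of the 4 very-late arrays (replicate 2) and all 4 mid arrays, so very-late and mid can be told apart from this split in part only. With 4 arrays a group, the number of arrays limits the precision. Very-late replicate 1 had the widest gap between the 3′ and 5′ GAPDH control probe sets of all 20 arrays, 2.70 against 0.831 to 1.78 in the others, while its actin gap of 0.117 lay among theirs. The 4 measured markers of steroidogenic luteal cells, STAR, HSD3B2, CYP19A1 and INHA, averaged 6.38 to 8.40 over the very-late arrays and 11.9 to 12.3 over the mid arrays. These genes are also among the falls reported below, so they are no separate check of the very-late tissue.

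The very-late gland differed from the mid gland in a large part of the measured transcriptome. Of 14132 genes with a probe set of their own, 4037 (28.6%) passed the test at an adjusted p under 0.05 by limma, 1842 of them higher in very-late corpora lutea (13.0% of the genes tested) and 2195 lower (15.5%). At least a 2-fold difference, with all 4 very-late arrays on the same side of all 4 mid arrays, was met by 605 higher genes (4.28%) and 689 lower genes (4.88%). Gene lists below whose counts stand without a share had 46.7% to 89.5% of their measured members called. The lists were chosen with earlier results of these data known. Symbols that start with LOC were left out of the ranking by size. Among the other genes the largest rises were in genes of phagocytes, led by CHIT1, a chitinase secreted by activated macrophages. The largest falls among them were in AREG, DEFB122 and genes of steroid synthesis. In a whole gland, fewer cells of a type and less RNA per cell cannot be told apart.

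**Figure D1:**
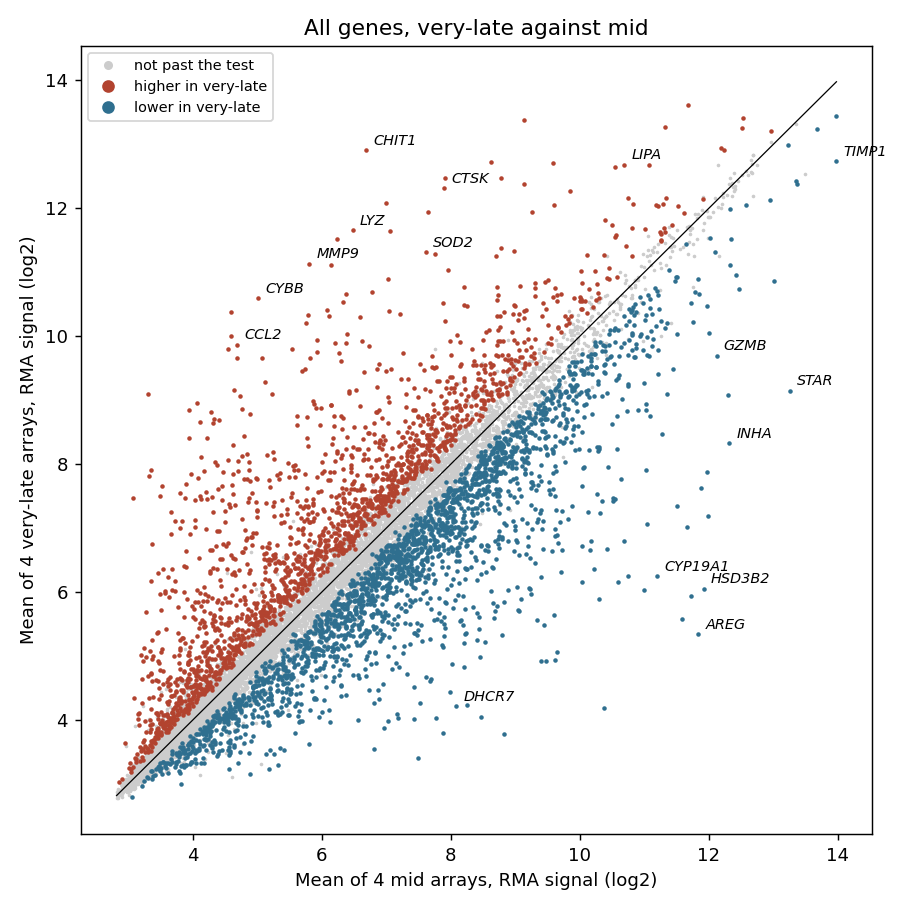
Mean log2 signal of every measured gene in the 4 very-late arrays (vertical axis) against the 4 mid arrays (horizontal axis), with 1 point per gene and equality as the diagonal line. The 1842 red genes were higher and the 2195 blue genes lower in very-late corpora lutea, with macrophage genes such as CYBB and CHIT1 far above the line and STAR, HSD3B2, CYP19A1 and AREG far below it.

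Genes of steroid synthesis held some of the largest falls. Of 16 measured genes for cholesterol delivery and steroid synthesis, 9 were lower in very-late corpora lutea, 1 was higher and 6 did not pass the test, with a median difference of −0.99 log2 against 0.00053 over all genes. STAR, which carries cholesterol to the inner mitochondrial membrane in the rate-limiting step of steroid synthesis, read 8.11, 8.05, 9.88 and 10.55 in very-late corpora lutea, against 13.17, 13.26, 13.40 and 13.20 in mid corpora lutea. The groups did not overlap, and the very-late glands spread over more than 2 log2 units while the mid glands were almost alike. STAR was 17.3-fold lower (−4.11 ± 0.38 log2, adjusted p = 2.96e-07). HSD3B2, the enzyme that converts pregnenolone to progesterone, read 5.67, 5.76, 6.53 and 6.23 in very-late corpora lutea, against 11.93, 11.77, 11.96 and 12.03 in mid corpora lutea. It was lower in each very-late gland by more than 5 log2 units, 58.5-fold on average (−5.87 ± 0.37 log2, adjusted p = 3.72e-09). HSD11B1, which regenerates active cortisol from cortisone, read 5.30, 6.38, 4.88 and 5.75 in very-late corpora lutea and 11.70, 11.59, 11.96 and 11.09 in mid corpora lutea. That was the largest fall of the list, 64.2-fold (−6.0 ± 0.32 log2, adjusted p = 4.9e-10).

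CYP19A1, the aromatase that makes oestrogens, read 5.79, 5.90, 5.99 and 7.29 in very-late corpora lutea, against 11.38, 9.95, 11.71 and 11.74 in mid corpora lutea. It was 30.9-fold lower (−4.95 ± 0.47 log2, adjusted p = 4.3e-07), with the least reduced very-late gland still far under every mid gland. CYP17A1, the theca-lineage enzyme that makes androgens, read 5.84, 4.52, 7.40 and 9.12 in very-late corpora lutea and 7.70, 7.84, 8.03 and 8.87 in mid corpora lutea. The highest very-late gland exceeded every mid gland, and the difference did not pass the test (−1.39 ± 0.66 log2, adjusted p = 0.17). Without very-late replicate 4 it passed (−2.19 log2, adjusted p = 0.0061), and without very-late replicates 1 and 2 its sign turned (0.15 log2). FDXR, the reductase that passes electrons to the mitochondrial steroid enzymes, was 10.3-fold lower (−3.36 ± 0.33 log2, adjusted p = 6.07e-07), and its partner FDX1 was 2.33-fold lower (−1.22 ± 0.15 log2, adjusted p = 8.66e-06). The 1 higher member was STARD3, a cholesterol carrier of late endosomes, at 1.27-fold (0.34 ± 0.09 log2, adjusted p = 0.012), and without very-late replicates 1 and 2 it was no longer called.

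MRAP, an accessory protein that brings melanocortin receptors to the cell surface, read 3.81, 3.37, 3.69 and 4.22 in very-late corpora lutea and 9.08, 8.68, 8.99 and 8.54 in mid corpora lutea. All very-late values were near background, so the 33.1-fold fall (−5.05 ± 0.22 log2, adjusted p = 6.57e-11) is limited by the floor of the array. CYP3A5, a cytochrome P450 that metabolizes steroids, was 28.0-fold lower (−4.81 ± 0.30 log2, adjusted p = 2.48e-09), with 6.38 to 8.03 in very-late and 11.47 to 12.53 in mid corpora lutea. Probes of CYP3A5 may also bind transcripts of its close relatives in the CYP3A family, and the same may hold for HSD3B2.

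Among 15 measured hormone receptors and transcription factors of luteal cells, 7 were lower in very-late corpora lutea and none was higher by limma (1 at an unadjusted p under 0.05). NR5A2, a nuclear receptor that drives steroidogenic genes, read 6.46, 4.34, 7.23 and 7.23 in very-late corpora lutea, against 9.92, 9.52, 9.61 and 9.77 in mid corpora lutea. Very-late replicate 2 was lowest, almost at background, and the groups were apart (10.5-fold lower, −3.39 ± 0.43 log2, adjusted p = 1.44e-05). GATA6, a transcription factor of ovarian somatic cells, read 6.73, 5.61, 6.60 and 7.44 in very-late and 9.14, 9.22, 8.98 and 9.32 in mid corpora lutea, again with replicate 2 lowest (−2.57 ± 0.25 log2, adjusted p = 6.45e-07). PRLR, the prolactin receptor, was 4.07-fold lower (−2.02 ± 0.33 log2, adjusted p = 0.000195), and all 5 of its probe sets were called lower. PGRMC1, a membrane-associated progesterone-binding protein, was 2.67-fold lower (−1.42 ± 0.23 log2, adjusted p = 0.000185). The nuclear progesterone receptor PGR read 3.17 to 3.40 in very-late and 3.58 to 4.38 in mid corpora lutea, near background on nearly every array, so its called difference of −0.60 ± 0.13 log2 (adjusted p = 0.00296) rests on a dim probe set. CYP11A1, LHCGR, SCARB1, PTGFR and VEGFA have no probe set annotated to them alone and were not analysed here.

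**Figure D2:**
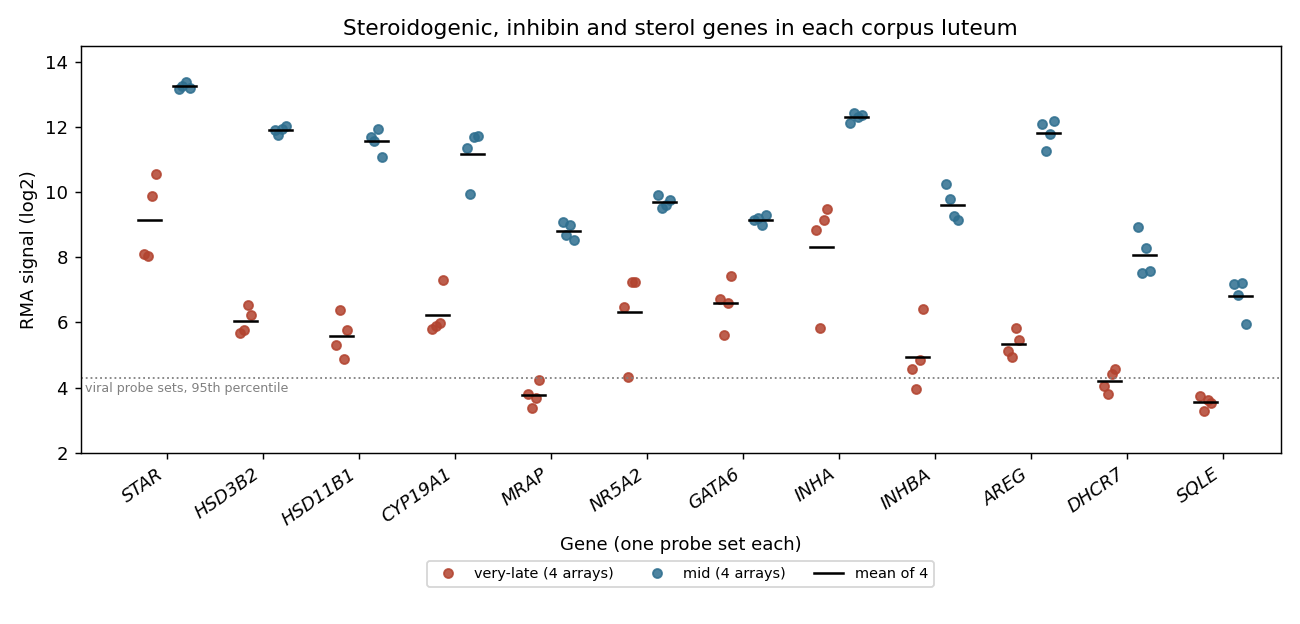
Log2 signal of 12 luteal genes in each corpus luteum, with the 4 very-late glands (red) left of the 4 mid glands (blue) for each gene, bars at the means and a dotted line at the 95th percentile of the viral probe sets (4.30). In all 12 genes every very-late gland lay below every mid gland, and STAR, NR5A2 and INHA spread far more widely among the very-late glands.

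Cholesterol synthesis was lower as a pathway. Of its 16 measured genes, 11 were lower in very-late corpora lutea and none was higher, with a median of −1.87 log2, the lowest of the 35 lists. The same count of 11 was found without very-late replicates 1 and 2. DHCR7, which catalyses the last step to cholesterol, read 4.06, 3.80, 4.42 and 4.58 in very-late and 8.94, 7.51, 8.30 and 7.59 in mid corpora lutea. The very-late level was at background, and the difference was 14.6-fold (−3.87 ± 0.43 log2, adjusted p = 2.82e-06). SQLE, the rate-limiting epoxidase of squalene, read 3.75, 3.27, 3.63 and 3.54 in very-late and 7.20, 6.85, 7.22 and 5.96 in mid corpora lutea (−3.26 ± 0.28 log2, adjusted p = 1.66e-07). TM7SF2 and EBP, a reductase and an isomerase of the same pathway, were 14.8-fold and 8.36-fold lower.

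Genes that take up, split and move cholesterol went both ways. CD36, a scavenger receptor for oxidized lipoproteins, read 10.31, 10.33, 9.32 and 9.78 in very-late and 5.62, 5.69, 6.58 and 5.80 in mid corpora lutea. It was 16.1-fold higher (4.01 ± 0.27 log2, adjusted p = 6.25e-09), in all 4 glands. LIPA, the lysosomal lipase that frees cholesterol from its esters, was 3.97-fold higher (1.99 ± 0.14 log2, adjusted p = 9.03e-09), and NPC2, which takes that cholesterol out of the lysosome with NPC1, was 2.69-fold higher. NPC1 itself was lower (−1.16 ± 0.17 log2, adjusted p = 4.7e-05), and STARD4, a cytosolic sterol carrier, was 6.0-fold lower (−2.59 ± 0.16 log2, adjusted p = 3.71e-09). In all, 3 of the 8 measured genes of uptake and ester storage were higher and 3 lower. Of 11 genes for cholesterol efflux and targets of the liver X receptors (LXR), 6 were higher and 3 lower. NR1H3, which encodes LXRα, read 7.52, 8.63, 7.34 and 7.91 in very-late and 5.56, 6.22, 5.67 and 5.53 in mid corpora lutea (2.11 ± 0.24 log2, adjusted p = 3.84e-06). MYLIP, a ubiquitin ligase and LXR target, was 2.87-fold higher and PLTP, a phospholipid transfer protein, 2.80-fold higher. LCAT, which esterifies the cholesterol of high-density lipoprotein, was 3.35-fold lower (−1.74 ± 0.22 log2, adjusted p = 1.46e-05). LPL, lipoprotein lipase, which releases fatty acids from lipoprotein triglycerides, read 9.74, 10.32, 9.81 and 10.16 in very-late and 5.26, 4.52, 4.22 and 4.40 in mid corpora lutea. It was the fifth largest measured rise of the named genes, 42.5-fold (5.41 ± 0.24 log2, adjusted p = 8.3e-11).

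The protein hormones of the gland fell with the steroid enzymes, with relaxin as an exception. INHA, the α subunit of inhibin, read 8.83, 5.82, 9.16 and 9.50 in very-late and 12.12, 12.43, 12.32 and 12.38 in mid corpora lutea. Replicate 2 was far lower than the other very-late glands, and the groups did not overlap (15.8-fold lower, −3.98 ± 0.50 log2, adjusted p = 1.18e-05). INHBA, the βA subunit shared by inhibin A and activin A, read 4.57, 3.95, 4.83 and 6.41 in very-late and 10.25, 9.79, 9.26 and 9.15 in mid corpora lutea (25.5-fold lower, −4.67 ± 0.51 log2, adjusted p = 2.5e-06). The activin-binding proteins FST and FSTL3 were 5.14-fold and 4.60-fold lower. Over the 22 measured genes of the inhibin, activin and TGF-β family, 8 were lower and 4 higher, and without very-late replicates 1 and 2 these counts were 6 and 1. The higher count was 2 without very-late replicate 1 or mid replicate 2. The higher member with the largest difference was TGFBR1, the type I TGF-β receptor, at 2.38-fold (1.25 ± 0.20 log2, adjusted p = 0.000131).

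RLN2, relaxin, read 11.19, 4.75, 11.94 and 12.55 in very-late and 10.28, 10.94, 10.84 and 10.51 in mid corpora lutea. Very-late replicates 1, 3 and 4 lay above every mid gland and replicate 2 far below, and the difference was not called (−0.54 ± 1.20 log2, adjusted p = 0.84). Without replicate 2 it was 1.25 log2 in the other direction and still not called (adjusted p = 0.24).

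Several other secreted factors of the mid gland were nearly lost. AREG, amphiregulin, a ligand of the EGF receptor that LH induces in granulosa cells, read 5.11, 4.95, 5.84 and 5.48 in very-late and 12.09, 11.26, 11.80 and 12.18 in mid corpora lutea. This 89.9-fold difference was the largest measured fall among the named genes (−6.49 ± 0.46 log2, adjusted p = 1.29e-08). DEFB122, annotated as a β-defensin, read 4.10, 4.07, 4.22 and 4.36 in very-late and 10.26, 10.67, 10.83 and 9.75 in mid corpora lutea (at least 73.0-fold lower, adjusted p = 1.41e-08). Its very-late level was near background, so its order against AREG is not settled. NPTX2, a secreted pentraxin known from neurons, was 55.1-fold lower (−5.78 ± 0.39 log2, adjusted p = 7.7e-09). WNT5A, a non-canonical WNT ligand, read 6.03, 5.06, 6.44 and 6.04 in very-late and 9.89, 10.56, 10.35 and 10.41 in mid corpora lutea (21.3-fold lower, −4.41 ± 0.31 log2, adjusted p = 1.19e-08). The 20 measured WNT pathway genes held 4 lower and 2 higher members (30% called, close to the 28.6% of all genes). PBX3, NANOS1 and DCLRE1C, a homeodomain factor, an RNA-binding protein and a DNA-repair nuclease, completed the 12 largest falls at 31.3-fold, 23.3-fold and 24.9-fold. These 3 names and that of DEFB122 come from the platform annotation alone, and whether the probe sets measure those genes was not tested. The probe sets of PBX3 disagreed, with 1 of 3 called higher.

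Of 21 listed prostaglandin genes 8 had a probe set annotated to them alone, with 3 higher and 2 lower (62.5% called). HPGD, the enzyme that inactivates prostaglandins, read 6.59, 5.07, 5.96 and 5.98 in very-late and 8.49, 9.47, 9.79 and 8.61 in mid corpora lutea, 9.14-fold lower (−3.19 ± 0.59 log2, adjusted p = 0.000631). PTGDR, a prostaglandin D receptor, was also lower (−1.80 ± 0.40 log2, adjusted p = 0.00295), to values near background. TBXAS1, thromboxane synthase, was 2.50-fold higher (1.32 ± 0.13 log2, adjusted p = 5.58e-07), and PTGES3, a prostaglandin E synthase and Hsp90 co-chaperone, was 2.09-fold higher at a low level. The remaining call was PTGIR, the prostacyclin receptor, at 1.39-fold higher. Granulosa-lineage genes included 4 lower of 8 measured (50% called, against 28.6% of all genes). They were INHA, CYP19A1 and NR5A2, all reported above, and KRT8, a keratin of epithelia and granulosa cells (−1.75 ± 0.40 log2, adjusted p = 0.00354). Of 3 granulosa cell markers only 1 was measured, and it was not called (0.16 log2) and near background at both stages. Of theca-lineage genes none of 5 was called (0%) in either direction by limma. At an unadjusted p under 0.05, 1 of the 5 theca genes was lower, CYP17A1.

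Markers of monocytes and macrophages were the most uniformly higher list. Of 19 measured, 17 were higher in very-late corpora lutea, none was lower, and in all 17 every very-late array exceeded every mid array. Very-late arrays lay all above the mid arrays for 12.2% of all genes and all below for 14.4%. The median difference was 3.41 log2. Averaged over the 19 markers, the signal was 9.11 to 9.85 in the very-late arrays and 6.03 to 6.57 in the mid arrays. The other 2, MRC1, the mannose receptor, and ITGAM, an integrin of myeloid cells, differed by −0.13 ± 0.10 log2 (adjusted p = 0.45) and −0.01 ± 0.10 log2 (adjusted p = 0.97). ITGAM was near background at both stages, and for MRC1 the other 2 of its 3 probe sets were called higher (the mean of the 3 was 1.63 log2 higher, adjusted p = 9.92e-05). In the mid glands the 3 defining markers measured, CD68, CD14 and CSF1R, averaged 6.55 to 7.04, above the background level of 4.30. In very-late glands they averaged 9.63 to 10.4. Whether the mid signal came from macrophages or from other binding to these probe sets was not tested.

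CHIT1 read 12.58, 13.02, 12.98 and 13.03 in very-late and 6.93, 5.49, 8.44 and 5.90 in mid corpora lutea. The very-late glands agreed closely and the mid glands varied by almost 3 log2 units, and the rise was the largest measured among the named genes (74.3-fold, 6.21 ± 0.56 log2, adjusted p = 2.7e-07). CYBB, the catalytic subunit of the phagocyte NADPH oxidase, read 10.29, 11.38, 10.13 and 10.57 in very-late and 5.46, 4.85, 5.22 and 4.53 in mid corpora lutea (47.7-fold higher, 5.58 ± 0.33 log2, adjusted p = 1.36e-09). LYZ, lysozyme, read 11.75, 11.89, 11.40 and 11.58 in very-late and 6.69, 5.81, 6.94 and 6.48 in mid corpora lutea (36.2-fold higher, 5.18 ± 0.46 log2, adjusted p = 2.32e-07). In these 3 genes the groups were apart by more than 4 log2 units. CD68, a lysosomal glycoprotein of macrophages, read 10.77, 11.49, 10.49 and 10.84 in very-late and 7.58, 7.01, 6.85 and 6.64 in mid corpora lutea (14.7-fold higher, adjusted p = 1.09e-08), although only 1 of its 2 probe sets was called. CD14, the co-receptor for bacterial lipopolysaccharide, was 8.72-fold higher (3.12 ± 0.35 log2, adjusted p = 2.91e-06). TYROBP, the signalling adaptor of myeloid receptors, was 19.7-fold higher (4.30 ± 0.31 log2, adjusted p = 1.41e-08).

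Other genes among the 12 largest rises are known from leukocytes. ADAMDEC1, a protease of macrophages and dendritic cells, read 9.08, 10.13, 8.59 and 8.61 in very-late and 3.26, 3.29, 3.10 and 3.59 in mid corpora lutea. It was at background in the mid gland and at least 55.4-fold higher in the very-late one, so its order against CHIT1 is not settled (5.79 ± 0.43 log2, adjusted p = 2.42e-08). LPXN, a focal-adhesion adaptor of blood cells, PRAM1, an adaptor of myeloid cells, and LCP1, the leukocyte actin-bundling protein L-plastin, were 38.0-fold, 34.0-fold and 31.5-fold higher.

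**Figure D3:**
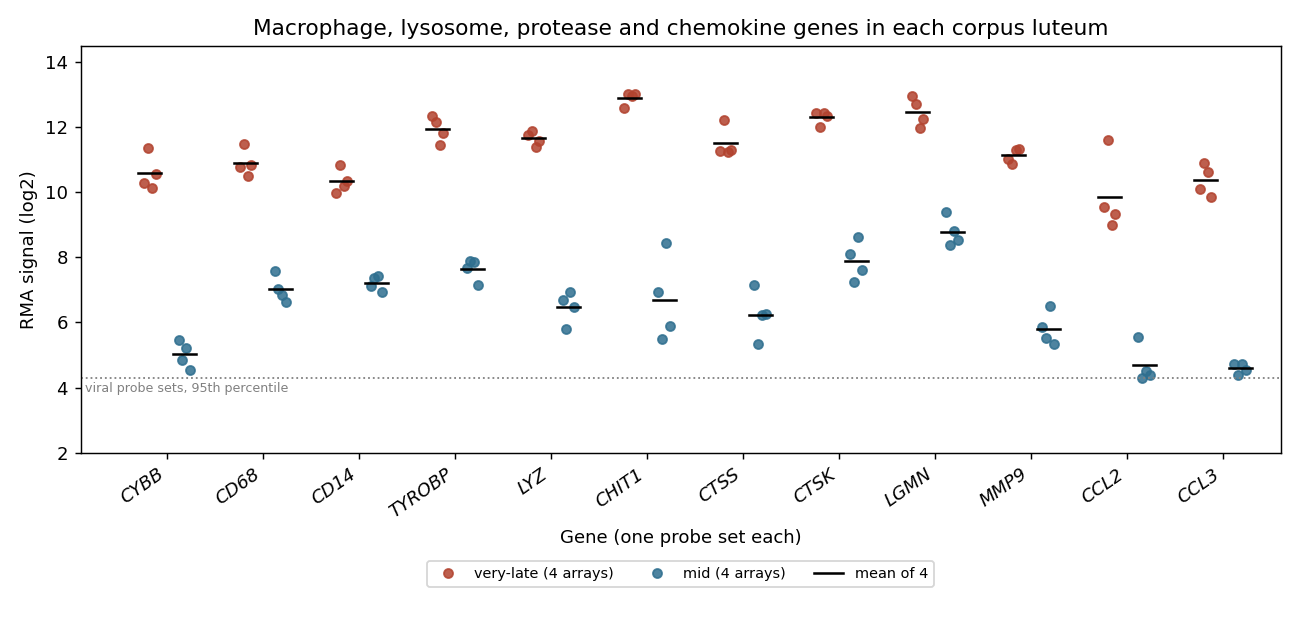
Log2 signal of 12 macrophage, lysosome, protease and chemokine genes in each corpus luteum, with the 4 very-late glands (red) left of the 4 mid glands (blue) for each gene, bars at the means and a dotted line at the 95th percentile of the viral probe sets (4.30). In all 12 genes every very-late gland lay above every mid gland, and replicate 2 stood highest of the very-late glands for CTSS (12.24) and CCL2 (11.60).

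Lysosomal genes rose with them. Of 15 measured, 12 were higher in very-late corpora lutea and 1 was lower, counts that were the same without very-late replicates 1 and 2. CTSS, a cathepsin of antigen-presenting cells, read 11.26, 12.24, 11.23 and 11.31 in very-late and 7.14, 5.34, 6.24 and 6.25 in mid corpora lutea (38.7-fold higher, 5.27 ± 0.37 log2, adjusted p = 1.21e-08). CTSK, a collagen-degrading cathepsin best known from osteoclasts, read 12.43, 12.02, 12.45 and 12.34 in very-late and 8.10, 7.25, 8.62 and 7.61 in mid corpora lutea (21.4-fold higher, 4.42 ± 0.40 log2, adjusted p = 2.73e-07). LGMN, the asparaginyl protease legumain, read 12.97, 12.71, 11.98 and 12.27 in very-late and 9.41, 8.39, 8.80 and 8.52 in mid corpora lutea (13.0-fold higher, adjusted p = 3.47e-09). In all 3 the groups were well apart. GM2A, which presents ganglioside GM2 for breakdown, was 8.45-fold higher (3.08 ± 0.52 log2, adjusted p = 0.000275), and its lowest very-late value, 9.41, was close to its highest mid value, 8.92. The lower member was GAA, the lysosomal enzyme that degrades glycogen (−0.58 ± 0.14 log2, adjusted p = 0.00768). Of 9 autophagy genes 5 were higher and none lower by limma (1 at an unadjusted p under 0.05), and the 1 with at least a 2-fold difference was SQSTM1, the cargo receptor p62 (1.02 ± 0.12 log2, adjusted p = 8.86e-06).

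Antigen presentation, complement and chemokine genes were higher as well. IFI30, a thiol reductase that unfolds antigens in lysosomes, read 12.03, 13.19, 12.27 and 12.41 in very-late and 8.63, 7.73, 8.05 and 7.20 in mid corpora lutea (23.8-fold higher, 4.57 ± 0.31 log2, adjusted p = 9.03e-09). MAMU-DMA and MAMU-DRA, macaque MHC class II chains, were 12.6-fold and 9.53-fold higher, with 3 of 3 probe sets called for each. Antigen-presentation genes, a list that shares CTSS with the lysosomal one and CD74 with the macrophage one, held 7 higher and no lower member of 12, and complement genes 7 higher and 1 lower of 14. C5AR1, the receptor for the C5a fragment, read 9.66, 10.32, 8.48 and 9.35 in very-late and 5.79, 6.05, 5.78 and 5.16 in mid corpora lutea (13.6-fold higher, 3.76 ± 0.34 log2, adjusted p = 2.96e-07). CFD and CFB, factors D and B of the alternative pathway, were 4.98-fold and 4.31-fold higher. C1QB, a chain of C1q, was 3.37-fold higher (1.75 ± 0.44 log2, adjusted p = 0.00768), but with a term for the mitochondrial split it was not called (1.16 log2, adjusted p = 0.14). The lower member was CD55, which protects cells from complement (−0.85 ± 0.28 log2, adjusted p = 0.038), by 1 of its 6 probe sets. That call was lost in 6 of the 8 fits that left out 1 array, those without very-late replicate 3 or 4 or any 1 mid array (adjusted p = 0.057 to 0.13), and with the mitochondrial term the difference was −0.33 log2 (adjusted p = 0.53).

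CCL2, which attracts monocytes, read 9.55, 11.60, 8.98 and 9.33 in very-late and 5.55, 4.31, 4.50 and 4.38 in mid corpora lutea (36.3-fold higher, 5.18 ± 0.59 log2, adjusted p = 4.45e-06). CCL3, a chemokine that macrophages release, read 10.11, 10.90, 10.63 and 9.87 in very-late and 4.71, 4.38, 4.72 and 4.54 in mid corpora lutea (55.3-fold higher, 5.79 ± 0.35 log2, adjusted p = 2.03e-09). Its sequence is close to that of its duplicated neighbours, and the probe sets may not tell them apart. CCR1, a receptor for CCL3, read 6.36, 9.18, 6.54 and 6.45 in very-late and 4.02, 4.17, 3.96 and 3.98 in mid corpora lutea (at least 8.58-fold higher, adjusted p = 2.42e-05), with replicate 2 far above the other very-late glands. Of 24 chemokines and receptors, 12 were higher and 3 lower, or 7 and 2 without very-late replicate 2. Without mid replicate 1 the counts were 9 and 1. The lower ones were CCL8, CCL21 and CXCL11, at −0.84, −0.94 and −0.67 log2, and the probe sets of CCL8 and CXCL11 were called in both directions, so that the mean over each gene's probe sets turned to 0.23 and 0.081 log2. The call of CCL21 was lost in 6 of the 8 fits that left out 1 array, those without very-late replicate 2 or 4 or any 1 mid array (adjusted p = 0.055 to 0.11), and that of CXCL11 without very-late replicate 3 or mid replicate 1.

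Cytokine and interferon genes were less uniform. IL10RA, the ligand-binding chain of the IL-10 receptor, read 8.00, 8.00, 6.90 and 6.93 in very-late and 4.59, 4.24, 4.32 and 3.74 in mid corpora lutea (9.42-fold higher, adjusted p = 3.79e-08). IL6ST, the gp130 receptor chain shared by the IL-6 family, read 5.16, 4.63, 5.58 and 5.54 in very-late and 8.90, 8.06, 8.60 and 8.56 in mid corpora lutea, 9.88-fold lower (−3.30 ± 0.27 log2, adjusted p = 7.55e-08). Its partner IL6R, the IL-6-binding chain, was 3.07-fold higher (1.62 ± 0.34 log2, adjusted p = 0.00225), so the 2 chains of this receptor moved in opposite directions. IL1RN, the IL-1 receptor antagonist, was 3.89-fold higher (adjusted p = 0.0167), and its call was lost in a fit without very-late replicate 1 (adjusted p = 0.054) or mid replicate 4 (adjusted p = 0.069). Of 19 cytokine genes, 5 were higher and 2 lower (36.8% called, against 28.6% of all genes). The counts were 3 and 2 without very-late replicates 1 and 2, and 3 were higher without very-late replicate 1 alone.

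Of 17 interferon-response genes 11 were higher and none lower, but only 6 without very-late replicates 1 and 2 and 7 with a term for the mitochondrial split. Leaving out 1 array, the count was 7 without very-late replicate 1 or 3 or mid replicate 3, and 6 without mid replicate 2. MX2, an interferon-induced GTPase, read 8.32, 7.32, 7.74 and 6.23 in very-late and 5.43, 4.95, 5.18 and 5.48 in mid corpora lutea (4.42-fold higher, adjusted p = 4.02e-05). GBP1, a guanylate-binding protein induced by interferon γ, read 7.40, 8.69, 8.44 and 6.69 in very-late and 5.21, 4.92, 5.20 and 6.66 in mid corpora lutea. Its groups touched at very-late replicate 4 and mid replicate 4, and its adjusted p was 0.0172, rising to 0.051 to 0.054 without very-late replicate 2 or 3 or mid replicate 2. IFI44, another interferon-induced gene, read 7.62 to 9.13 in very-late and 5.33 to 7.58 in mid corpora lutea (adjusted p = 0.032), a call lost in 4 of the 8 fits that left out 1 array, those without very-late replicate 1 or 3 or mid replicate 2 or 3. IFIT2, an interferon-induced RNA-binding protein, was 3.37-fold higher by its brightest probe set (adjusted p = 0.000175), while 2 of its 6 probe sets were called higher and 2 lower.

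Lymphocyte markers moved less than those of macrophages and in both directions. Of 10 T and NK cell markers, 5 were higher and 2 lower (70% called). CD4 was 3.41-fold higher (1.77 ± 0.26 log2, adjusted p = 7.6e-05), a marker that macrophages also carry, and CD8A and CD8B were 2.00-fold and 2.14-fold higher at levels of 4.63 to 5.63 in very-late glands. GZMB, granzyme B, a killing protease of cytotoxic cells, read 9.84, 10.57, 8.96 and 9.40 in very-late and 12.53, 11.85, 11.85 and 12.24 in mid corpora lutea (5.37-fold lower, −2.42 ± 0.37 log2, adjusted p = 9.94e-05). The granzyme was thus at its higher level in the mid gland, where CD8A (4.00 to 4.29) and CD8B (3.73 to 3.86) were near background. Of 7 B and plasma cell markers 2 were higher and none lower (28.6% called, the same share as of all genes). Of these, JCHAIN, the joining chain of secreted antibodies, read 3.66 to 5.51 in very-late and 3.20 to 3.57 in mid corpora lutea (1.37 ± 0.26 log2, adjusted p = 0.000803). Neutrophil and mast cell markers held 1 call among 10 (10% called). It was MPO, at 1.27-fold near background, which was lost without very-late replicate 1 or 2 or any 1 mid array. Erythrocyte markers held 2 lower of 4 (50% called). HBB, β-globin, read 5.74 to 6.76 in very-late and 7.20 to 7.75 in mid corpora lutea (−1.21 ± 0.26 log2, adjusted p = 0.00237), a call lost with the mitochondrial term (adjusted p = 0.061). Surface epithelium, stroma and oocyte markers held 1 call among 12 (8.33% called, against 28.6% of all genes).

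Matrix-degrading genes showed opposite movements. MMP9, the gelatinase of leukocytes, read 11.02, 10.88, 11.29 and 11.33 in very-late and 5.86, 5.51, 6.51 and 5.33 in mid corpora lutea (40.3-fold higher, 5.33 ± 0.43 log2, adjusted p = 7.06e-08). MMP2, the gelatinase of stromal cells, read 9.42, 8.97, 9.99 and 9.79 in very-late and 8.97, 9.01, 8.84 and 9.06 in mid corpora lutea and was not called (0.57 ± 0.23 log2, adjusted p = 0.10). Without very-late replicate 2, its lowest, MMP2 was called higher (0.76 log2, adjusted p = 0.024). TIMP1, the inhibitor of MMP9 and other metalloproteinases, read 12.69, 12.60, 12.97 and 12.68 in very-late and 13.96, 14.01, 13.99 and 13.91 in mid corpora lutea. Its standard error was the smallest of the named genes and the groups were apart (2.35-fold lower, −1.23 ± 0.07 log2, adjusted p = 1.33e-09), though 1 of its 3 probe sets was called. The mid values of TIMP1 lay close to the highest value of the series, 14.284, and whether an upper limit of the signal narrowed them was not tested. ADAMTS4 and ADAMTS1, proteases that cleave the proteoglycan versican among others, were 9.10-fold and 5.03-fold lower, and MMP19 was 4.11-fold higher. Of 21 proteases and inhibitors 6 were higher and 4 lower (47.6% called).

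Of 20 genes of fibroblasts and matrix, 6 were lower, 2 higher and 12 not called (40% called). SPP1, osteopontin, a matrix glycoprotein that macrophages also secrete, read 9.09, 9.74, 10.85 and 8.26 in very-late and 6.01, 4.98, 5.99 and 5.97 in mid corpora lutea (13.5-fold higher, 3.75 ± 0.62 log2, adjusted p = 0.00023). COL1A1, a chain of type I collagen, read 9.47, 9.64, 10.51 and 9.54 in very-late and 11.23, 11.11, 10.67 and 10.91 in mid corpora lutea (2.28-fold lower, adjusted p = 0.0014), by 1 of its 2 probe sets. THY1, a surface protein of fibroblasts, was 3.67-fold lower and VCAN, versican, 2.94-fold lower. Among 8 pericyte and smooth muscle markers 4 were lower and none higher (50% called). MCAM, an adhesion molecule of pericytes and endothelium, read 7.24, 7.75, 9.10 and 8.69 in very-late and 10.06, 10.49, 10.38 and 10.21 in mid corpora lutea (4.25-fold lower, adjusted p = 1.51e-05), and MYL9, a smooth-muscle myosin light chain, was 3.89-fold lower (adjusted p = 1.56e-05).

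Endothelial markers were called about as often as genes at large. Of 12, 2 were higher and 1 was lower (25% called, against 28.6% of all genes), or 1 higher and 3 lower with the mitochondrial term or without very-late replicate 3. Their mean signal of 7.04 to 8.03 in very-late arrays overlapped 7.44 to 7.64 in mid arrays. PECAM1, a junction protein of endothelium and leukocytes, read 9.82, 9.70, 10.25 and 9.74 in very-late and 9.38, 9.77, 9.40 and 9.37 in mid corpora lutea (0.40 ± 0.15 log2, adjusted p = 0.067). Without mid replicate 2, its highest mid gland, it was called higher (0.49 log2, adjusted p = 0.028). KDR, the main VEGF receptor, read 3.87 to 4.59 in very-late and 4.43 to 5.95 in mid corpora lutea, a dim probe set whose call (−0.81 ± 0.25 log2, adjusted p = 0.032) was lost in 4 of the 8 fits that left out 1 array, those without very-late replicate 1 or 2 or mid replicate 3 or 4. The vessel growth list held 3 higher and 4 lower of 19 genes (36.8% called, against 28.6% of all genes). Without very-late replicates 1 and 2 these counts were 4 and 1. The lower count was 1 without very-late replicate 1, 2 without very-late replicate 2, mid replicate 2 or mid replicate 4, and 0 without mid replicate 3. NRP2, a co-receptor of lymphatic and venous VEGF signalling, was 2.49-fold higher (1.32 ± 0.13 log2, adjusted p = 1.12e-06).

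Of 25 measured cell death genes, 8 were higher, 1 was lower and 16 were not called (36% called, against 28.6% of all genes), with a median of 0.20 log2. The higher count was 5 without very-late replicate 2, and likewise without replicates 1 and 2. BCL2A1, a survival protein of the BCL2 family found in leukocytes, read 7.20, 9.0, 6.37 and 7.34 in very-late and 3.02, 3.08, 3.18 and 3.03 in mid corpora lutea. It was at background in every mid gland and 21.1-fold higher in very-late glands (4.40 ± 0.33 log2, adjusted p = 2.77e-08). TNFSF10, the death ligand TRAIL, was 3.17-fold higher (adjusted p = 0.00295, and 0.060 with the mitochondrial term), and CASP4, an inflammatory caspase, 3.00-fold higher (adjusted p = 2.39e-06). BIRC3, an inhibitor of apoptosis, read 5.02, 6.88, 3.70 and 4.32 in very-late and 3.30, 3.34, 3.11 and 3.33 in mid corpora lutea (adjusted p = 0.0216, or 0.057 without very-late replicate 2 and 0.054 without mid replicate 3). The lower member was CASP6, an executioner caspase (−1.23 ± 0.13 log2, adjusted p = 2.18e-06). FAS, a death receptor, and BCL2 did not pass the test (−0.28 ± 0.28 log2 with adjusted p = 0.60, and 0.20 ± 0.11 log2 with adjusted p = 0.26).

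**Figure D4:**
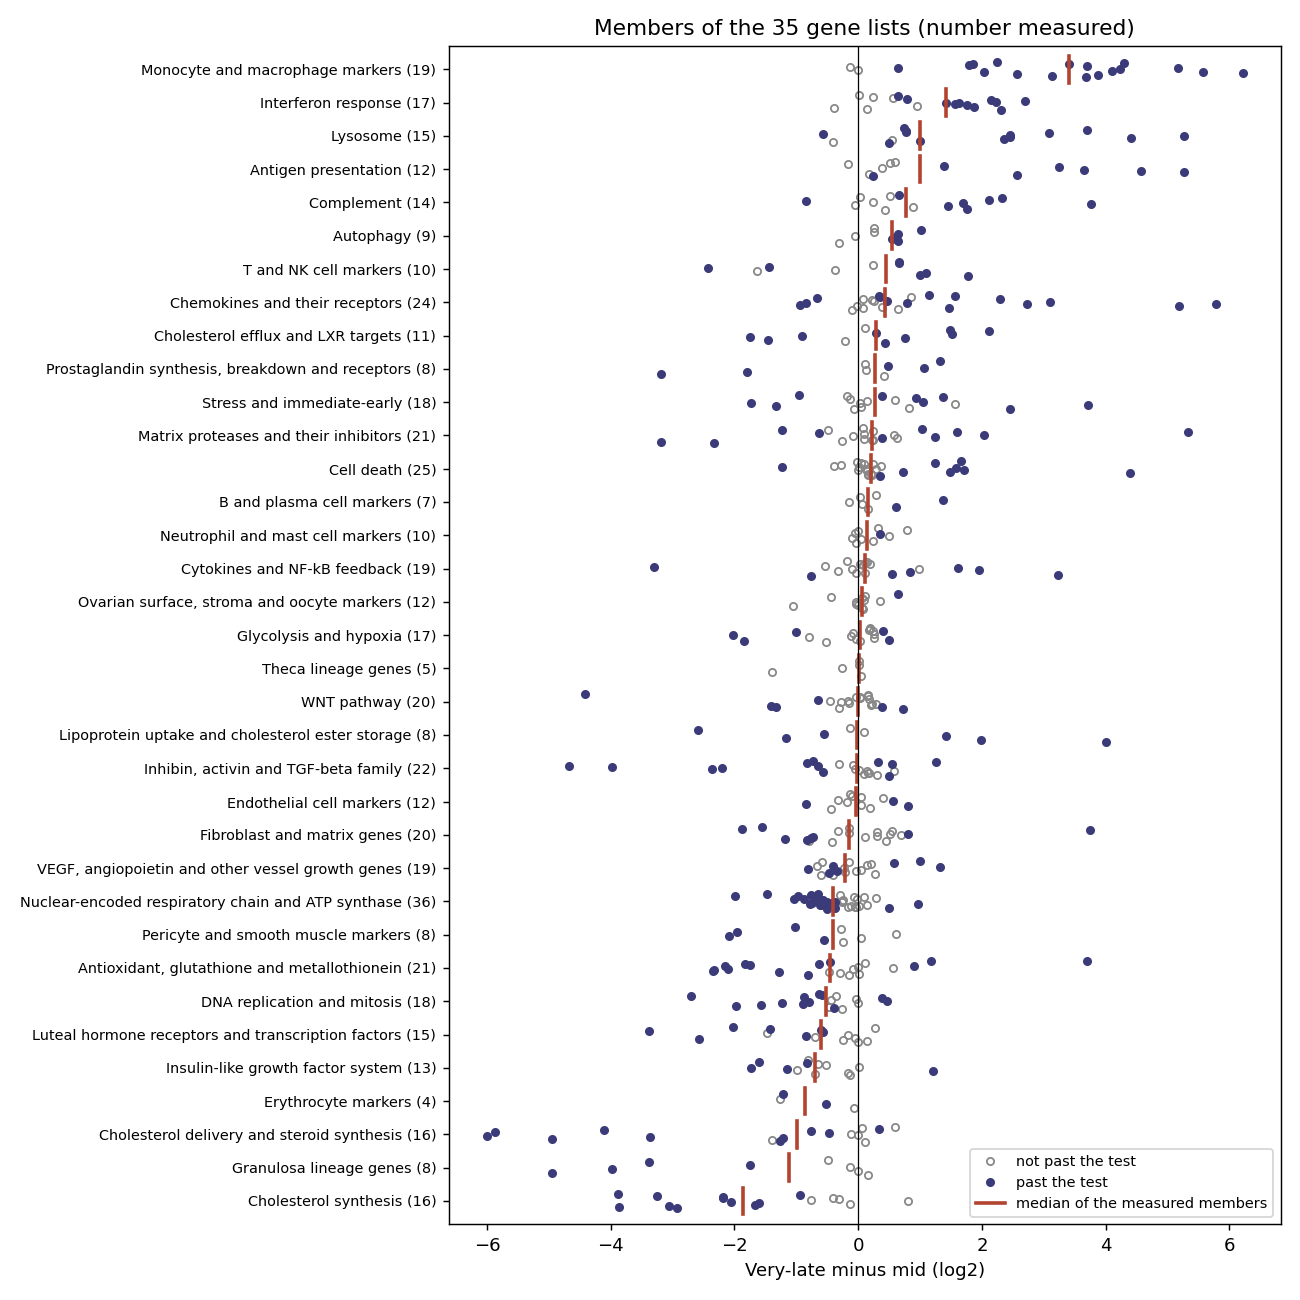
Difference between very-late and mid corpora lutea (log2, horizontal axis) for each measured member of the 35 gene lists, with filled points past the test (adjusted p under 0.05), open points not past it, and a red bar at each list's median. Macrophage markers lie at the top with a median of 3.41 and cholesterol synthesis at the bottom with −1.87, while many lists hold members on both sides of 0.

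Of 18 genes of DNA replication and mitosis, 10 were lower, 2 higher and 6 not called. Without very-late replicates 1 and 2 the counts were 11 lower and 0 higher, and with the mitochondrial term 7 and 1. Between very-late replicate 2 and the 4 mid glands, with the lone array assumed to vary like the others, they were 3 and 1. TOP2A, the topoisomerase of dividing cells, read 5.74, 5.37, 4.85 and 4.70 in very-late and 7.57, 8.66, 7.87 and 7.37 in mid corpora lutea (6.51-fold lower, −2.70 ± 0.28 log2, adjusted p = 1.28e-06). The mitotic cyclins CCNB1 and CCNB2 were 3.95-fold and 2.98-fold lower, and CENPF, a kinetochore protein, 2.35-fold lower. MKI67, the proliferation antigen Ki-67, was 1.84-fold lower (−0.88 ± 0.26 log2, adjusted p = 0.0206), with 1 of 3 probe sets called and groups that overlapped between 4.98 and 5.19, and its call was lost without mid replicate 2 (adjusted p = 0.063) or very-late replicate 3 or 4. The 2 higher members were MCM2 and MCM5, subunits of the replicative helicase, at 1.39-fold and 1.30-fold, and both calls were lost without very-late replicate 2 or 4 or mid replicate 3 or 4, and that of MCM2 also without mid replicate 2.

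Nuclear-encoded genes of the respiratory chain and ATP synthase were lower in 20 of 36 cases and higher in 2, with a median of −0.40 log2. UQCRB and UQCRQ, subunits of complex III, were 3.98-fold and 2.78-fold lower, and NDUFS4, a subunit of complex I, 2.05-fold lower, each with all very-late arrays under all mid arrays. UQCRQ read 10.17, 10.09, 9.90 and 9.98 in very-late and 11.48, 11.44, 11.48 and 11.64 in mid corpora lutea. Of its 4 probe sets, UQCRB had 2 called. The higher members were COX8A, a subunit of complex IV, and ATP5MC1, a ring subunit of ATP synthase, at 1.96-fold and 1.41-fold, where ATP5MC1 was not called with the mitochondrial term (adjusted p = 0.060). Mitochondrially encoded transcripts lay above every mid array on 3 of the 4 very-late arrays, those of the high set. Their mean was 11.5, 7.22, 11.6 and 11.8 in very-late and 7.67, 8.93, 8.30 and 7.87 in mid corpora lutea (exact two-sided permutation test, p = 0.14, 70 splits, smallest possible p 0.029, adjusted p = 0.36 over 5 array measures). The split did not follow stage order, since early and mid-late arrays fell in both sets, so these values are not given as a change at regression. Between very-late replicate 2 and the 4 mid glands, all of the low set, 8 nuclear-encoded genes were lower and 3 higher, a fit with no spread between very-late glands in which the lone array is assumed to vary like the mid ones. With a term for the split 16 were lower and 1 higher. By the same exact permutation test none of the other 4 array measures passed after adjustment (array median, viral median, and the GAPDH and actin gaps, adjusted p = 0.14 to 0.83). With 70 splits the smallest p, 0.029, gives 0.14 when 1 measure of the 5 reaches it, so no single measure could pass. At an unadjusted p under 0.05 the array median did, with 3.93 to 3.98 in very-late and 3.90 to 3.92 in mid arrays (exact permutation p = 0.029).

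Antioxidant genes moved both ways. SOD2, the mitochondrial superoxide dismutase that inflammatory signals induce, read 11.41, 11.85, 10.76 and 11.21 in very-late and 7.72, 7.26, 7.74 and 7.73 in mid corpora lutea (13.0-fold higher, 3.70 ± 0.23 log2, adjusted p = 2.5e-09), by 1 of its 2 probe sets. The glutathione transferases GSTA4 and GSTM3 were 5.09-fold and 5.03-fold lower, and MT2A, a metallothionein, read 10.68, 11.15, 10.72 and 10.88 in very-late and 13.24, 13.04, 12.96 and 12.77 in mid corpora lutea (4.42-fold lower, adjusted p = 5.51e-05). Over 21 genes, 10 were lower and 3 higher, and the other 2 higher ones were SRXN1, sulfiredoxin, at 2.27-fold and NFE2L2, the transcription factor NRF2, at 1.87-fold. In glycolysis 3 of 17 were lower and 2 were higher by less than 1.5-fold (29.4% called, close to the 28.6% of all genes). The lower ones were HK2, the inducible hexokinase, at 4.08-fold, ALDOC, an aldolase, at 3.61-fold, and PFKFB3 at 2.01-fold. PFKFB3, which makes an activator of glycolysis, was dim. With a term for the mitochondrial split, 5 of the 17 glycolysis genes were higher and 3 lower (median 0.20 log2, against 0.021 as reported). Between very-late replicate 2 and the 4 mid glands, all of the low set, the median was 0.46 log2. Insulin-like growth factor genes had 4 lower and 1 higher of 13 (38.5% called, against 28.6% of all genes). Among them were the binding proteins IGFBP3 and IGFBP2 (3.32-fold and 2.21-fold lower) and the clearance receptor IGF2R (2.32-fold higher).

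Stress and immediate-early genes moved both ways, 6 higher and 3 lower of 18 (50% called). EGR2, an early-response zinc-finger factor, read 8.06, 8.44, 7.41 and 7.22 in very-late and 4.77, 3.48, 4.50 and 3.54 in mid corpora lutea (13.1-fold higher, adjusted p = 4.49e-05). ATF3 and KLF6, stress-induced transcription factors, were 5.45-fold and 2.58-fold higher, with 1 of 3 and 4 of 6 probe sets called. FOSL2, an AP-1 subunit, was 3.33-fold lower (−1.73 ± 0.20 log2, adjusted p = 3.59e-06). FOS was not called (1.56 ± 0.77 log2, adjusted p = 0.20), with 6.01 to 8.04 in very-late and 4.68 to 6.24 in mid corpora lutea. FZD4, a WNT receptor, was 2.66-fold lower, and DKK3, a secreted WNT modulator, 2.52-fold lower by its brightest probe set, with 3 of its 6 probe sets called higher and 2 lower.

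The calls were not spread evenly over the steps from the mid to the very-late gland. All 4 late arrays were in the high mitochondrial set (11.96 to 12.17) and all 4 mid arrays in the low set (7.67 to 8.93). Late against mid therefore cannot be told apart from this split. Late corpora lutea, at days 14 to 16, set against mid ones gave 223 higher (1.58%) and 280 lower genes (1.98%), 3.56% of all genes tested. Very-late corpora lutea set against late ones gave 1444 higher (10.2%) and 1587 lower genes (11.2%), 21.4% in all. Both comparisons use the same late arrays, and each shares its other group with the comparison of very-late with mid, so their values are given side by side and not tested against each other. STAR averaged 13.26 in mid, 13.37 in late and 9.15 in very-late corpora lutea, so its late level differed from its mid level by 0.11 log2 (adjusted p = 0.95) and its very-late level from its late level by −4.22 log2 (adjusted p = 4.3e-07). CYP19A1 had the same course, at 0.07 and −5.02 log2, and so did INHA at −0.35 and −3.63 log2, where the first difference of each was not called. HSD3B2 was lower at both steps, with −2.57 log2 in late against mid and −3.30 log2 in very-late against late. FSTL3 did most of its falling early, with −1.87 log2 (adjusted p = 0.00019) in late against mid and −0.33 log2 (adjusted p = 0.36) in very-late against late.

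Macrophage markers were called higher in 10 of 19 cases in late against mid corpora lutea, and in 14 of 19 in very-late against late corpora lutea. Over all genes the shares called higher in these 2 steps were 1.58% and 10.2%, and those called lower 1.98% and 11.2%. Because these shares differ, the list counts of the 2 steps are not measured against each other. All values of late against mid in this paragraph share the limit set by the mitochondrial split. LYZ had already gained 3.89 log2 by the late stage (adjusted p = 0.00031) and a further 1.29 log2 after it (adjusted p = 0.077). MMP9 gained 3.39 and then 1.94 log2, both called. CD36 and CCL2 gained 0.58 and 0.13 log2 by the late stage, neither called, and 3.43 and 5.05 log2 after it. Of the antigen-presentation genes 7 of 12 were called higher by the late stage and 5 in the later step, while of the lysosomal genes 3 of 15 were called higher by the late stage and 12 in the later step. Of the 16 cholesterol synthesis genes 11 were called lower in very-late against late corpora lutea, and none in late against mid corpora lutea by limma (4 at an unadjusted p under 0.05).

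**Figure D5:**
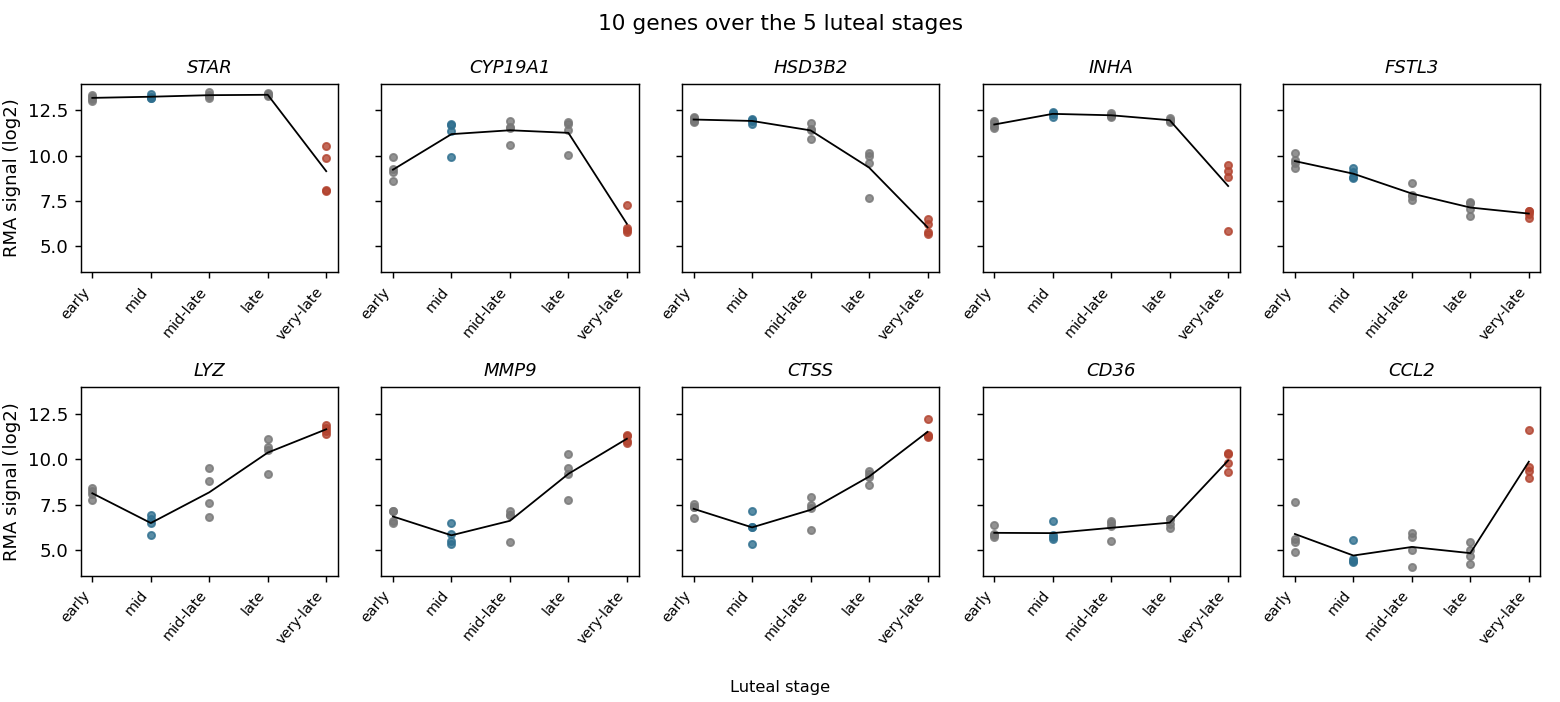
Log2 signal of 10 genes in every corpus luteum of the 5 stages in time order (points, 4 per stage, very-late in red and mid in blue) with a line through the stage means. STAR, CYP19A1 and INHA lie at like levels at the mid and late stages and lower at the very-late stage, FSTL3 declines before it, LYZ and MMP9 are higher from the late stage on, and CD36 and CCL2 are higher at the very-late stage.

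The 4 very-late glands differed more from each other than the 4 mid glands did. Over all genes the median standard deviation was 0.178 in very-late and 0.132 in mid corpora lutea, and over the called genes it was 0.273 in very-late and 0.171 in mid corpora lutea. The very-late value was the larger for 64.8% of all genes. The p-values for genes rest on 1 spread per probe set shared by the 5 stages, which does not follow this difference. Very-late arrays lay in both mitochondrial sets and included the widest GAPDH gap, while all 4 mid arrays lay in the low set. The wider very-late spread cannot be told apart from this mix of arrays. Replicate 2, the array of the low mitochondrial set, was the lowest very-late gland for NR5A2, GATA6, INHA, INHBA, FDXR and RLN2 and the highest for CCL2, CCR1, CTSS, CYBB and BCL2A1. Replicate 4 kept the highest very-late levels of STAR, CYP19A1, CYP17A1 and INHBA. Without replicates 1 and 2 the comparison still called 4096 higher and 3792 lower probe sets, against 4973 (9.44% of 52707) and 4839 (9.18%) with all arrays, 18.6% in both directions.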

How the data were processed

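The deposited series table holds 1 log2 value per probe set and array, which the authors made with RMA, per the submitters' processing notes. RMA as usually run corrects background, scales arrays by quantiles and summarises probes. Its version is not given in the sources used here, and scanner files were not used here. With 1 distribution for all arrays, a difference is relative to the array as a whole, and it shrinks differences of dim probe sets. The values lay between 2.477 and 14.284.

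Of 52865 probe sets, 158 controls were set aside and 52707 tested. GEO's platform annotation gave 1 symbol to 24956, several to 361 and none to 27390. Each of 14132 genes was represented by the probe set of its own symbol with the highest mean over the 20 arrays, and 6375 genes had several. Symbols are the platform's, which can be old, and 340 identifiers were not found in the current gene table.

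limma 3.58.1 in R 4.3.3 fitted 1 mean per stage to all 20 arrays (15 residual degrees of freedom), so the spread is shared by the 5 stages. The difference is very-late minus mid, errors are standard errors, and adjusted p-values are Benjamini-Hochberg over all probe sets, called under 0.05. Array measures used an exact permutation test.

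Named genes were the 12 largest rises and 12 largest falls past the test with at least 2-fold and no overlap between groups, up to 4 such members of each of 35 lists, and 22 measured of 30 fixed genes. Symbols that start with LOC were left out of the 12 largest rises and the 12 largest falls. Some members of a count of 5 or fewer were also named, after their values were seen, and others were not. The lists hold 519 measured of 734 genes, some in more than 1 list, and the comparison, lists and rule were chosen with earlier results of these data known. Of the 519, 78 were near background at both stages. Alternatives covered scaling, filters, priors, array weights, the replicate block, the mitochondrial split and leaving out arrays.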

Additional observations from a re-analysis of the deposited data

Results flagged for a closer look

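Of 330 groups of 4 arrays, the very-late and the mid values of 165 named genes, 18 held an array whose gap to the nearest other array exceeded Dixon's 95% critical share of the group's range. Chance flags about 1 in 20 such groups, about as often as here.

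Among the very-late glands 7 values stood apart, 4 of them in replicate 2. There CCR1 read 9.18 (others 6.36 to 6.54), CTSS 12.24 (others 11.23 to 11.31) and VCAN 8.55 (others 7.48 to 7.65), each higher than the rest, and DKK3 read 7.18, lower than the rest (8.65 to 8.94). In replicate 1 CHIT1 read 12.58, under the others (12.98 to 13.03). In replicate 3 COL1A1 read 10.51, above the others (9.47 to 9.64). In replicate 4 CYP19A1 read 7.29, above the others (5.79 to 5.99).

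Among the mid glands 11 values stood apart, 6 of them in replicate 2. There PECAM1 read 9.77 (others 9.37 to 9.40), and PRAM1 at 6.47 (others 7.13 to 7.24), PRLR at 6.72 (others 7.11 to 7.17), SOD2 at 7.26 (others 7.72 to 7.74), NFE2L2 at 8.28 (others 8.74 to 8.79) and SPP1 at 4.98 (others 5.97 to 6.01) were lower than the rest. In replicate 1 CCL2 read 5.55 (others 4.31 to 4.50) and LCP1 6.45 (others 5.99 to 6.07), both higher, and DKK3 9.14 (others 9.83 to 9.93), lower. In replicate 3 BIRC3 read 3.11, under the others (3.30 to 3.34), all near background. In replicate 4 GBP1 read 6.66, above the others (4.92 to 5.21).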

How the results depend on the processing

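The comparison gave 9812 probe sets past the test (4973 higher, 4839 lower) as reported. Leaving out 1 of the 8 arrays gave 8210 to 9416 (4132 to 4840 higher, 4078 to 4581 lower). A fit of only the 8 arrays gave 6247 (2928 higher). It has fewer samples and takes its spread from these 2 stages alone, and the cause of the lower count was not tested. In that fit 14 named genes lost their call, among them KDR, MKI67, BIRC3 and IL6R. The higher chemokine genes and receptors were 6, against 12 as reported, and no endothelial marker was called. An adjusted p under 0.01 gave 6413 (3160 higher), and a 2-fold minimum gave 3061 (1492 higher, 1569 lower). Testing 1 probe set per gene gave 4360 (1988 higher, 2372 lower), with fewer features tested. Restricted to arrays of the low mitochondrial set, very-late replicate 2 against the 4 mid arrays gave 6394 (2852 lower), where the lone very-late array was assumed to vary like the mid ones. Cyclic loess, median centring, a filter on dim probe sets, a trended prior, array weights, the mitochondrial term and leaving out very-late replicates 1 and 2 each kept the 3 counts within 1.5 times. Replicate numbers did not pair the arrays (correlations of deviations −0.16 to 0.053 over the 4 shared numbers), and a fit with the replicate block called 9661. Among 165 named genes, 123 had the same direction and side of the threshold in all settings tried. CYP17A1 turned to 0.15 without very-late replicates 1 and 2, MMP2 to −0.0030 in the low mitochondrial set, and RLN2 to 0.41 with array weights, 1.60 without very-late replicates 1 and 2 and −1.35 to 1.25 leaving out 1 array. The mean over a gene's probe sets gave 0.37 for DKK3, 0.23 for CCL8, 0.081 for CXCL11 and 1.63 for MRC1. ITGAM, near 0 as reported, gave 0.016 with array weights, 0.023 without very-late replicates 1 and 2 and −0.072 to 0.075 leaving out 1 array. The cause was not tested for any of these. The GAPDH gap of very-late replicate 1 and the mitochondrial split were not tested as causes of any difference. PGR was dropped by the filter on dim probe sets and has no value there.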

Other observations

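Many genes that differed lay outside the lists. Of the 1294 genes that passed the test with at least a 2-fold difference and no overlap between the groups, 150 belonged to a list (28.9% of 519 listed genes, which were chosen with earlier results known) and 1144 did not (523 higher and 621 lower, 8.4% of 13613 other genes). The genes named here were chosen after their values were seen, and the values are a description.

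Among the higher ones outside the lists were further genes of leukocytes. RAC2, the blood-cell GTPase of the phagocyte oxidase, averaged 9.65 ± 0.30 in very-late and 4.68 ± 0.11 in mid corpora lutea (SD, n = 4 each, 31.4-fold higher, adjusted p = 2.62e-10 by limma). PTPRC, the pan-leukocyte antigen CD45, averaged 8.68 ± 0.63 in very-late and 4.40 ± 0.08 in mid corpora lutea (SD, n = 4 each, 19.4-fold higher), ITGB2, the β2 integrin chain, was 21.9-fold higher, and TLR4, the lipopolysaccharide receptor, 12.2-fold higher. Several are better known from osteoclasts and fused macrophages, namely ACP5, tartrate-resistant acid phosphatase (23.2-fold higher), and DCSTAMP, a membrane protein needed for cell fusion (7.87-fold higher). Lipid-handling genes included FABP5, a fatty-acid-binding protein (11.65 ± 0.29 in very-late and 7.05 ± 0.21 in mid corpora lutea, SD, n = 4 each, 24.3-fold higher), and PLA2G7, which cleaves platelet-activating factor (22.2-fold higher). IDO1 and KYNU, enzymes of the kynurenine pathway of tryptophan, were 10.2-fold and 7.96-fold higher, and IDO1 varied widely among the very-late glands (8.12 ± 1.81, against 4.77 ± 0.36 in mid corpora lutea, SD, n = 4 each). Without very-late replicates 1 and 2 the difference of IDO1 was 2.11 log2 and no longer called (adjusted p = 0.13).

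Among the lower ones were ALAS1, the housekeeping first enzyme of haem synthesis (7.34-fold lower), ACO1, the cytosolic aconitase that also controls iron handling (5.57-fold lower), and ELOVL6, a fatty-acid elongase (7.25-fold lower). NPR3, the natriuretic peptide clearance receptor, averaged 5.49 ± 1.26 in very-late and 9.45 ± 0.32 in mid corpora lutea (SD, n = 4 each, 15.6-fold lower, adjusted p = 2.72e-06 by limma). PENK, proenkephalin, was 8.89-fold lower. ESM1 and ANGPTL4, secreted proteins of endothelium and of lipid metabolism, were 8.41-fold and 6.48-fold lower.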
